A study of Drosophila melanogaster with 2 samples.

Results

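GAF-bound regions of the X chromosome were taken from a ChIP-seq peak list of untreated S2 cells (S2-DRSC stock), a long-established Drosophila line. All regions that the list placed on chromosome X were used, which gave 988 of 4604 regions, together with the 2176 individual peaks into which the Subpeaks tool had split them. Chromatin was immunoprecipitated with an antibody against GAF, the protein made by the Trl gene, and the 2 replicates were combined before peaks were called, so that no value below has an error between replicates. The notes deposited with the list call these cells mock-RNAi and name a pre-immune IP as control, whereas the sample label calls them untreated and the series description names a non-specific IgG. The GAF-RNAi cells of the series were not analysed here. Positions refer to dm3 and start at 1.

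GAF binds GA-rich DNA through a zinc finger, and its BTB/POZ domain lets several molecules sit side by side on clustered sites. At promoters it works with nucleosome remodelers to keep the DNA open, and many of its target genes carry a paused RNA polymerase. The X is a distinctive setting for such a protein: S2 cells are male, their X is dosage-compensated by the MSL complex, and the entry sites of that complex are themselves GA-rich and are bound by another zinc finger protein, CLAMP.

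The X regions spanned a wide range of heights. The height of a region is its tag pile-up at the summit, each tag being extended to the 146 bp fragment length. The lowest X region had 19 tags and the highest 859, the median was 93 and the quartiles were 43 and 266.25. Because no more than 3 tags per position and strand were kept, a height could not exceed 876. On X, 18 regions reached 700 tags and 105 reached 500, whereas 309 (31.3%) stayed under 50. The tags were concentrated in few places. The 98 regions with the most tags held 45.9% of the tags counted in X regions, and the 494 regions with the fewest held 9.34%. The weak end of the list was also its uncertain end. An empirical false discovery rate (FDR) of 5% or lower was listed for 608 X regions (61.5%, against 62.8% of all regions in the list), and for 497 it was 1% or lower (50.3%, against 52.9% of all regions). All 471 X regions of at least 100 tags were among the 608, as were 130 of the 208 regions with 50 to 99 tags, whereas 7 of the 309 lower ones reached this limit.

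GAF-bound regions were unevenly spaced along the X. Between the first region, which started at 139962, and the last, which ended at 22352342, there were 44.5 regions per Mb. The median distance from a summit to the next was 7493 bp, while the mean was 22504 bp, so that short distances within groups alternated with long empty stretches. The lower quartile was 2724 bp and the upper quartile 23613 bp. Of 987 neighbouring pairs, 203 (20.6%) had edges at most 1 kb apart, and 45 were separated by more than 100 kb. The distance depended on which regions were kept, as its median was 13647 bp at an FDR of 5% or lower and 18660 bp at 1% or lower. On 2L, 2R, 3L and 3R the list held 31.3, 37.7, 37.2 and 34.0 regions per Mb, and the median summit distances were 12996, 10717, 9917.5 and 11970.5 bp. At an FDR of 5% or lower, a comparison chosen after seeing the data, they were 20605, 18766, 17393 and 19587.5 bp. The X median was thus shorter than those of these 4 arms with and without this limit. By other measures X was not the densest: individual peaks numbered 98.0 per Mb on X and 95.3, 113.1, 105.1 and 105.7 per Mb on these arms, and regions covered 4.80% of the X span and 4.62%, 5.40%, 4.94% and 5.16% of theirs. No test was made of this difference, since regions of a pooled list are not replicates. The arms also differed from X in the number of tags expected from the control IP, explained below. This number was above its genome-wide level, by any amount, for 12.8% of X regions. On 2L, 2R, 3L and 3R the same held for 86.8%, 88.2%, 64.9% and 84.6% of regions. In every comparison of X with these arms, the chromosome, its copy number in these male cells and the control level cannot be told apart.

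**Figure D1:**
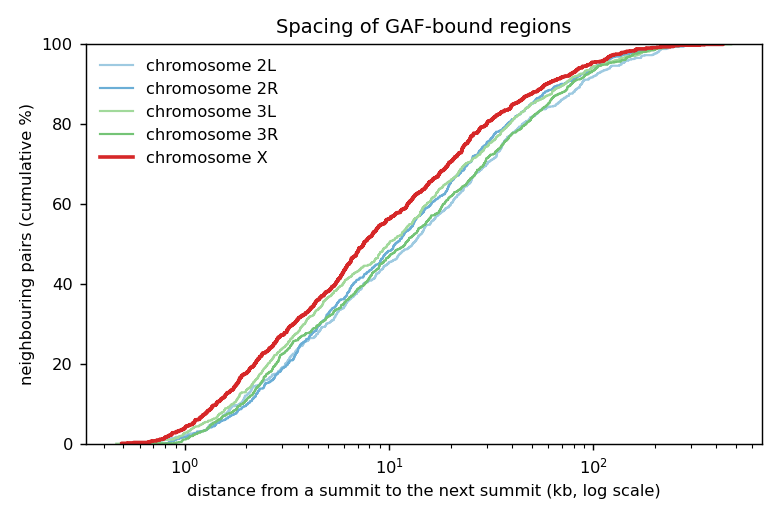
Cumulative share of neighbouring pairs of regions (y axis, %) against the distance from a summit to the next (x axis, kb on a log scale), with 1 line per chromosome arm. The X curve crosses 50% at a median of 7493 bp, a shorter distance than on 2L, 2R, 3L or 3R.

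Strong and weak regions were mixed along the chromosome. The heights of neighbouring regions were unrelated in rank (Spearman's rho = -0.03 across 987 neighbouring pairs, which share one library). Pairs within 1 kb held the most strong partners. In 66 of these 203 pairs (32.5%) both members had at least 100 tags, compared with 69 of 368 pairs (18.8%) separated by 1 to 10 kb and 80 of 416 pairs (19.2%) farther apart. Regions of at least 500 tags had a neighbour at a median of 715 bp from their edge, against 2595 bp for regions under 50 tags. The median was 1626 bp for all regions of at least 100 tags and 2525 bp for those of 50 to 99 tags. Height and the nearest edge gap were only weakly related (Spearman's rho = -0.12 across 986 regions). Median widths were 1674 bp at 500 tags or more and 628 bp under 50 tags. The part of width in these distances was not tested.

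When neighbours with edges at most 10 kb apart were joined, 784 X regions (79.4%, 95% Wilson interval 76.7 to 81.8%, which treats regions as independent although neighbours enter a cluster together) fell into 213 clusters and 204 stood alone. Of the clusters 86 had 2 regions, 48 had 3 and 36 had 4. The other 43 had at least 5 regions each, 324 in all, and were between 10.8 and 77.2 kb long with a median of 22.8 kb. Regions in these larger clusters had a median of 105.5 tags, those in clusters of 2 to 4 regions 90 tags, and lone regions 81.5 tags. The quartiles of the 3 classes overlapped widely (43 to 357.5, 44 to 243 and 41.75 to 199.25 tags). On 2L, 2R, 3L and 3R the same joining placed 69.2%, 73.6%, 74.6% and 71.3% of regions in clusters. With a fixed limit of 10 kb this share depends on how many regions per Mb the list holds. There were 44.5 per Mb on X and 31.3, 37.7, 37.2 and 34.0 on these arms. The part of this density in the shares was not tested.

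The cluster with the most regions lay from 12612443 to 12660062 and held 16 regions with 60 individual peaks in 47.6 kb. Its summits were, in order, 33, 376, 193, 51, 77, 502, 582, 163, 154, 39, 457, 418, 31, 56, 283 and 93 tags. High and low regions were thus mixed, often with neighbours of the same kind, and 9 of the 16 had at least 100 tags. For 13 of them the expectation from the control was raised, as described below, and the part of this in the cluster was not tested. The next had 15 regions from 1942917 to 2020085, with summits between 25 and 669 tags, and another had 14 regions from 11680902 to 11725948, with summits between 25 and 522 tags. The control was at its genome-wide level for all 14 regions of this last cluster and above it for 3 of the 15 in the one before. Counted in windows of 1 Mb from the first base, the 22 full windows held between 20 and 80 regions with a median of 43.5. The densest window ran from 13000001 to 14000000, with 80 regions and 185 individual peaks, and it was followed at once by one of the sparsest, with 21 regions.

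The longest stretches without a GAF-bound region were 431.0 kb from 14116533 to 14547528, 348.8 kb from 20532932 to 20881722 and 329.2 kb from 21505580 to 21834741. The first of these contained the transcripts of mud, whose product orients the mitotic spindle, and of CG11674, CG13404 and CG12540. The next contained, among others, those of Npc1b, a sterol transporter of the gut, and of the testis gene hydra. Transcript positions were held here for 291 X genes, a part of the annotated genes, so that this is no count of genes in the stretches, and none of them lay in the third.

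At most X regions the control IP did not exceed its genome-wide level. The tags expected from the control were obtained as height over fold enrichment, and have the genome-wide level of 5.88 tags as their lower bound. For 862 X regions the expectation was at that level, so that their local control was at or below it. For 126 (12.8%) it was above it, any excess beyond the rounding of the fold enrichment being counted. The expectation of these 126 was between 5.90 and 16.1 tags with a median of 6.95. In 22 of them it was at least 1.5 times the genome-wide level. Of these 126 regions, 78 sat in 15 runs of at least 3 consecutive regions. The run with the most regions comprised 14 from 12558774 to 12642651, over 83.9 kb, and its expectation was between 6.63 and 16.1 tags with a median of 10.2. It lay between the transcripts of CG11085 and pira, an interval in which the Release 6 annotation places, among other genes, CkIalpha, a casein kinase of the Wnt and Hedgehog pathways, and Smr, a transcriptional corepressor. The next by number, of 8 regions from 1372398 to 1550875, had a median expectation of 6.83 tags. By length the first was a run of 5 regions over 215 kb, from 13304780 to 13520127. Its expectation was between 5.90 and 6.83 tags with a median of 6.27. Runs had no limit on the distance between their regions, and the control level between regions is not known here. The median summit height was 93.5 tags for the 126 regions and 93 for the 862. The part of the control signal in the number of regions called in these runs was not tested. Without the 126 regions the window with 80 regions held 55, and the densest was then the window from 11000001 to 12000000 with 61.

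**Figure D2:**
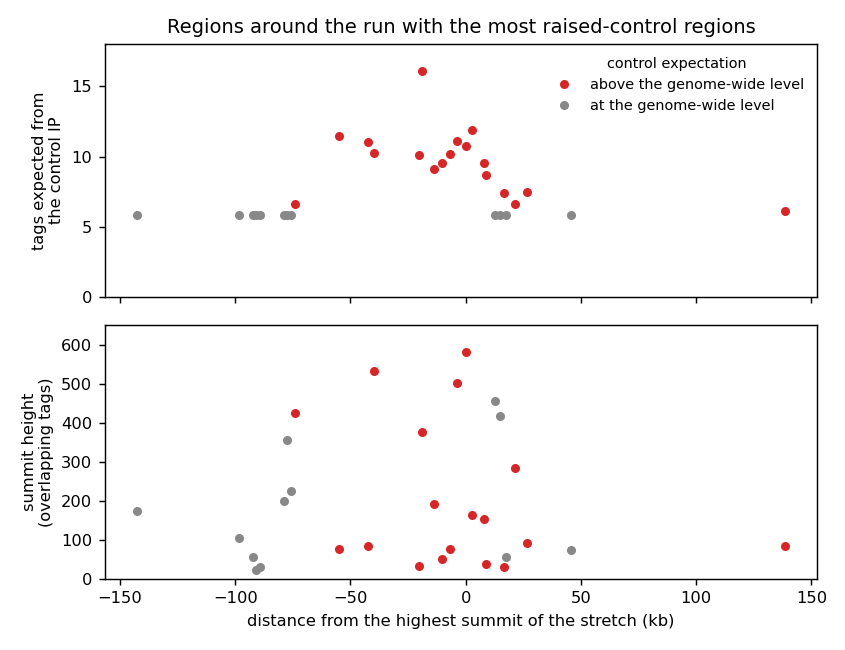
Tags expected from the control IP (upper panel) and summit height in overlapping tags (lower panel) for 30 X regions against their distance in kb from the highest summit of the raised-control run with the most regions. The 18 red points have an expectation above the genome-wide level and the 12 grey points lie at it; the expectation reaches 16.1 tags while heights within the run go from 33 to 582 tags.

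Most X regions held between 1 and 3 individual peaks. A single individual peak was found in 356 regions, 2 in 326, 3 in 177 and 4 or more in 129, up to 11. Regions with a single peak had a median width of 662 bp and a median height of 58 tags, and those with 4 or more had 2121 bp and 380 tags. The number of individual peaks followed the width (Spearman's rho = 0.69 across 988 regions). Individual peaks tiled their regions, as 1172 of 1188 neighbouring ones were at most 9 bp apart. Several individual peaks were present in 64.0% of regions on X (95% Wilson interval 60.9 to 66.9%, counting error only), and 83.7%, 85.0%, 79.8% and 82.6% on 2L, 2R, 3L and 3R. Low peaks weighed in these shares. When individual peaks needed at least 20 tags, a limit applied to the arms after seeing the data, they fell to 30.7% on X and to 49.7%, 48.7%, 43.0% and 50.4% on the arms. Median widths also differed, with 850 bp on X and 1169.5, 1132.5, 1026 and 1165 bp on these arms. The difference was not tested.

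The additional peaks were mostly much lower than the highest of their region. Across the 632 regions with several individual peaks the second was at a median of 23.9% of the height of the highest, with quartiles of 9.40% and 51.3%. Among individual peaks of at least 20 tags this median was 48.0%. Of the 1188 individual peaks that were not the highest of their region, 499 were under 10% of it and 202 (17.0%) reached 50%. In the 326 regions with exactly 2 peaks, the lower was under 25% of the higher in 204. In the 177 regions with 3 peaks, the highest stood in the middle in 104 (58.8%). A minority of regions had peaks of similar height. In 166 (16.8%, 95% Wilson interval 14.6 to 19.3%) at least 2 individual peaks reached 50% of the highest, and the summits of the 2 highest were then a median of 500 bp apart, with quartiles of 322.5 and 765 bp. This share was 19.5% of the 471 regions of at least 100 tags and 18.8% of the 309 regions under 50 tags, but 7.69% of the 208 regions in between. The regions under 50 tags gave 58 of the 166, yet only 7 of these 309 had an FDR of 5% or lower. Their peaks of similar height are thus low and uncertain. In 27 of the 166 regions the second peak had at least 400 tags, and the summits of the 2 highest were then between 290 and 3870 bp apart.

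**Figure D3:**
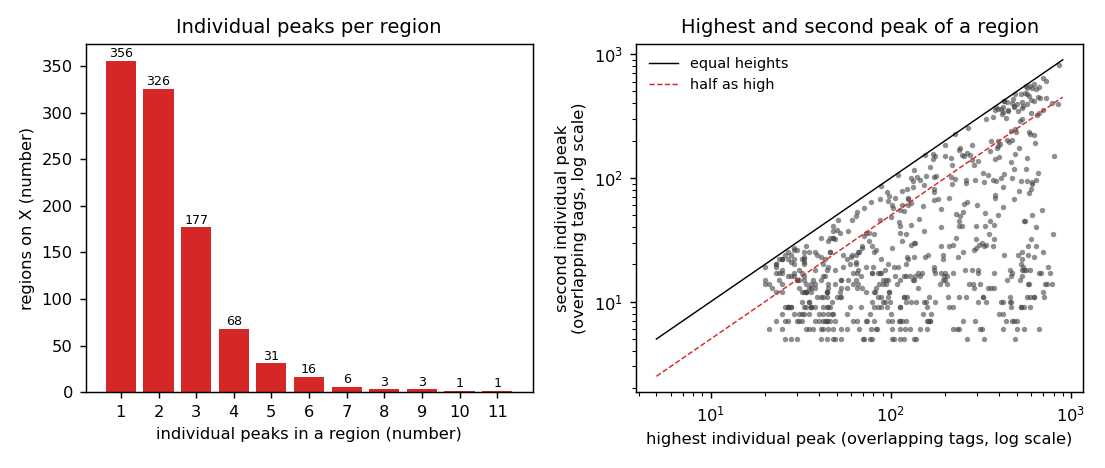
Left, number of X regions (y axis) by their number of individual peaks (x axis), from 356 regions with 1 to a single region with 11. Right, height of the second individual peak against that of the highest, in overlapping tags on log scales, for 632 regions; most points lie below the dashed line at 50% and some approach the line of equal heights.

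The strongest X locus lay from 8784519 to 8790904. Its highest summit, at 8785944, had 859 tags, and it also held the most tags (6961) and the most individual peaks (11) of any X region. Among them 3 peaks had 854, 810 and 724 tags, the latter 2 lying 2270 and 2950 bp beyond that of 854 tags. The other 8 had between 16 and 100 tags. The summit of 859 tags was at 98.1% of the largest possible height of 876 tags. Whether this limit brought the 3 heights closer together was not tested, so that they cannot be taken as equal strength. The locus lay 18.4 kb beyond the transcript of CG12075 and 4.87 kb before that of Rbm13, and in the gene order of Release 6 the coding genes between these are Moe and Uros1. Moe encodes moesin, which ties the actin cortex to the plasma membrane, and Uros1 is named for uroporphyrinogen III synthase of the heme pathway. A second strong region stood nearby, from 8763378 to 8764972 inside the transcript of CG12075, 6.08 kb from its start, and had rank 5 on the X with 793 tags. Its expectation from the control was 6.74 tags.

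The region with the next highest summit, of 853 tags, lay from 19046391 to 19050584. It ranked behind the first in tags as well (6239), and its expectation from the control was 7.46 tags. Its second peak, 1290 bp away, reached 393 tags. The next in rank was from 19779940 to 19782471 with 806 tags, its summit 27604 bp beyond the Nup205 transcript. Nup205 is only the nearest transcript held on that side. In the gene order of Release 6, 13 coding genes lie between it and CG12655, the next one held. After this region came one from 2211315 to 2212357 with 794 tags. The latter was 1043 bp wide and had a single dominant peak, its second peak having 14 tags, and so had the regions of rank 7 (767 tags, from 13024388 to 13026115), rank 8 (749 tags, from 13640601 to 13642063) and rank 9 (740 tags, from 3634307 to 3635554), whose second peaks had 17, 19 and 14 tags. The 10 highest summits thus came from both kinds of region, since 5 of them had a second peak at 5% or less of the highest, whereas ranks 1, 6 and 10 had one above 50%. The heights of these 10 summits were between 83.7% and 98.1% of the largest possible height. The part of this limit in their order, and in the relative heights of their peaks, was not tested.

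Several of the strongest regions lay inside genes, far from the start of the transcript held. Other starts of the same genes, and starts of genes not held, were not examined. Rank 6, from 13533882 to 13536579 with 789 tags, was 17.3 kb into the transcript of NFAT, a Rel-family transcription factor whose mammalian relatives respond to calcium and osmotic stress. Rank 8 was 8.05 kb into that of Pdcd4, whose mammalian relative inhibits translation initiation, and close to its end, as the transcript is 8.77 kb long. Rank 10, from 7588142 to 7593300 with 733 tags, was 8.13 kb into that of CHES-1-like, a forkhead transcription factor. This last region was the broadest of the 3, with 9 individual peaks of 197, 442, 311, 315, 731, 416, 101, 388 and 6 tags in order, spread along 5159 bp.

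**Figure D4:**
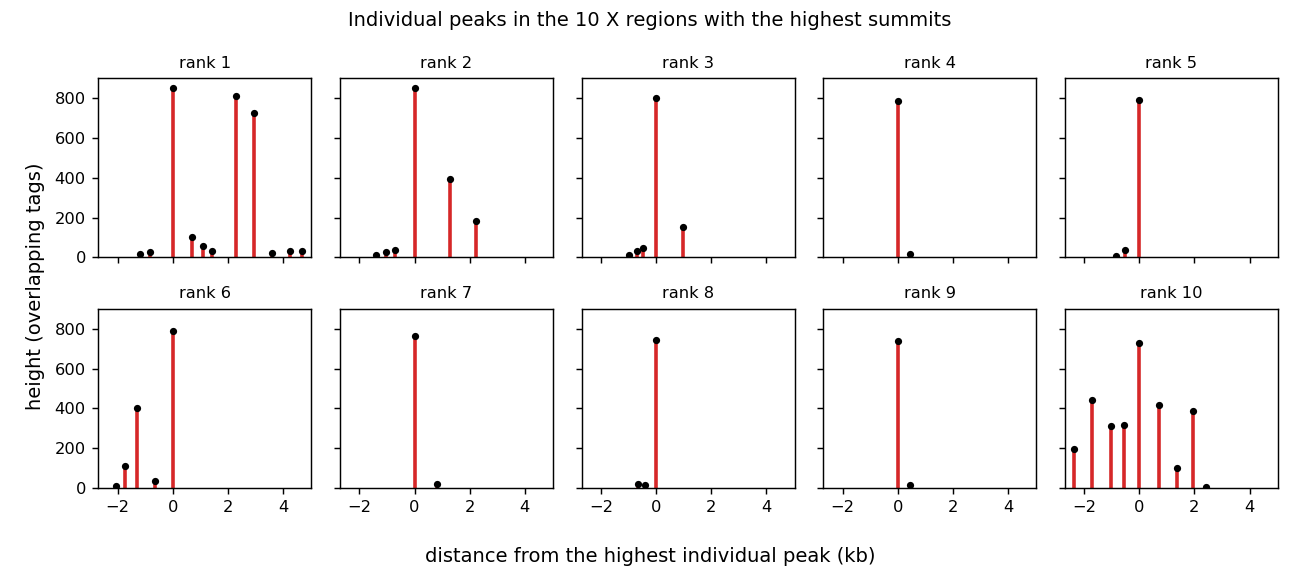
Height of each individual peak (y axis, overlapping tags) against its distance in kb from the highest individual peak (x axis) in the 10 X regions with the highest summits, ranked by height. Ranks 4, 5, 7, 8 and 9 show 1 dominant peak, rank 1 shows 3 of 854, 810 and 724 tags, and rank 10 shows 9 peaks over the region.

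Height and width were related over the X as a whole (Spearman's rho = 0.77 across 988 regions of one library), with exceptions at the top. Both come from the same tags and the same peak calling, and the part of the calling in this relation was not tested. The widest region, of 6894 bp from 12558774 to 12565667, had a summit of 425 tags, which ranked 145th among the X regions, and opened the run of raised control. Its 8 individual peaks included 2 of nearly equal height, 424 and 420 tags. The strongest locus, highest of all, came next in width with 6386 bp. Then followed the region from 3669577 to 3675472, where 10 individual peaks filled 5896 bp. Their heights were 534, 500, 388, 285, 231, 166, 609, 389, 16 and 280 tags in order, so that 5 reached 50% of the highest, the largest number in any X region. A region from 1512666 to 1517907 had 9 individual peaks, as had rank 10 by height. It lay 14.2 kb into the transcript of br, the zinc finger transcription factor Broad that directs the response to ecdysone at metamorphosis. Its peaks of 423 and 459 tags at one end and 584 tags at the other were separated by peaks of 9 to 322 tags, and it belonged to the run of raised control from 1372398 to 1550875.

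GAF peaks at X promoters were examined for the 291 transcripts whose dm3 positions were held, a part of the X genes. This part was no random draw. The transcripts with a peak, given next, all had names between CG10706 and CG1417 in alphabetical order. Shares and ranks of promoter peaks thus hold for these 291 transcripts only. An individual peak overlapped the 500 bp upstream of the start in 51 of these transcripts (17.5%, 95% Wilson interval 13.6 to 22.3%, counting error only). CtsB and amrt shared a peak of 240 tags, and Clic and Nup93-1 shared one of 27 tags, so that 49 different peaks were involved. Over the 51 transcripts the height was between 6 and 641 tags (median 99). It reached 100 at 25 transcripts, which had 24 different peaks. The regions of these 25 all had an FDR of 5% or lower. Among the lower peaks some were in regions within that limit, such as Pits (0.83%), and others far above it. The FDR was 99.21% at CG12541, 86.86% at AP-1-2beta and 79.97% at Clic and Nup93-1, so that not all of the 51 are certain. For the highest peak at each promoter the summit was a median of 107 bp upstream of the start, and in 23 of the 51 it was within 200 bp on either side. Because a peak had to overlap the 500 bp upstream to be counted, a mostly upstream placement is in part set by this window. Of these 25 transcripts, 10 had the summit within 120 bp upstream, 5 farther than that but within 500 bp, 7 farther upstream and 3 downstream of the start.

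Among the transcripts held, the strongest promoter peaks belonged to regulatory genes as well as to others. Myc, the growth-promoting transcription factor, had a single-peak region with 641 tags in its individual peak, 82 bp upstream of the start. At peb, which encodes the zinc finger protein Hindsight needed in the amnioserosa and the eye, the peak had 631 tags, 86 bp upstream. At CG12730 it had 626 tags, 78 bp upstream. Dsp1, an HMG-box protein that works with Dorsal and with Polycomb group proteins, had 553 tags 71 bp upstream. The summits of these 4 peaks thus lay between 71 and 86 bp upstream. The other named peaks were placed differently. At Nup205, a component of the nuclear pore, 624 tags lay 868 bp upstream, and the region belonged to a run of raised control. This summit, at 19745455, was nearer to the start of pico, at 19746055 on the other strand, and lay downstream of that start. The peak can thus not be given to Nup205 alone. CHES-1-like carried 568 tags 340 bp upstream, in addition to the strong region inside the gene, and CG13004 had 542 tags 747 bp upstream. At mahe, a DEAD-box helicase, 528 tags lay 247 bp downstream of the start. Each of these 8 peaks was in a region with an FDR listed as 0.

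**Figure D5:**
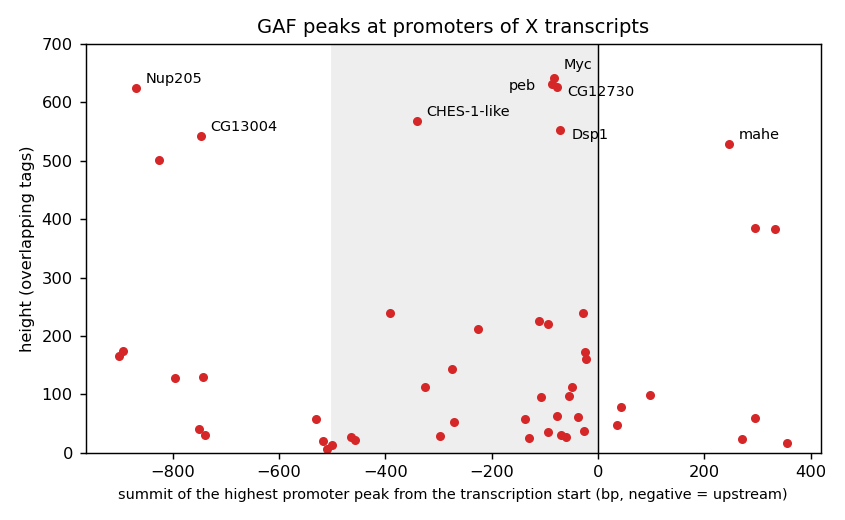
Height of the highest individual peak overlapping the 500 bp upstream of the start (y axis, overlapping tags) against the position of its summit relative to the start (x axis, bp) for 51 X transcripts; the grey band marks these 500 bp and a summit may lie outside it. The 8 highest are named, and Myc, peb, CG12730 and Dsp1 lie between 71 and 86 bp upstream.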

How the data were processed

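GAF ChIP-seq of untreated S2 cells was used in the form of the deposited peak lists. Per the labels, the submitters' processing notes name BWA and dm3. The authors combined the replicates and called regions with MACS 1.4.0beta at a p-value of 1e-04, and split them with the Subpeaks tool. Of 11288498 tags of 46 bp in the ChIP 6645644 were kept, and of 5252536 in the control 5181809.

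The deposited tag count of a region is not normalized. Summit heights were deposited as a signal of overlapping tags. The deposited fold enrichment is a ratio to the local control, the deposited FDR is in percent, and the deposited score is 10 times the -log10 of the MACS p-value.

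Each individual peak went to the region it shared most bases with, 1 bp being enough. Heights of individual peaks and of region summits are separate deposited values that differed by at most 14 tags on X. Wilson intervals were computed with scipy 1.17.1 under Python 3.11.15 (numpy 2.4.6, pandas 2.3.3, matplotlib 3.10.9), and cover counting error over regions, peaks or transcripts only. Tag counts carry no interval. Correlations are descriptions across regions. No test was run. Assignment, joining and promoter offsets were checked on simulated intervals. Transcript positions came from a supplementary gene table of the study held in part, without its values, and 289 of 291 matched a symbol of the Release 6 annotation by locus tag or synonym.

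Regions named are the 10 highest, the 3 widest, those 3 with the most individual peaks and those 3 with the most tags, the 3 clusters with the most regions, the 3 longest gaps, and up to 8 promoters with the highest peaks; genes in intervals, the fifth-ranked locus, and runs of raised control were chosen after values were seen. All members and lists were chosen with earlier results of these data known.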

Additional observations from a re-analysis of the deposited data

How the results depend on the processing

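Of 63 alternatives over 10 results, 29 left the value within its tolerance (a count within 1.5 times, a share or a median within its 95% binomial interval) and 34 moved it; the 6 without regions of raised control were added after seeing the data and are among the 29. No paired analysis was possible because the replicates were combined before peaks were called, and for the same reason no replicate could be left out. The search for the motif GAGAG in promoters was not run, since no sequence was used here. Of the 309 regions under 50 tags, 7 had an FDR of 5% or lower, and no alternative depth was run.

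Filters leave fewer regions by construction. At an FDR of 5%, an FDR of 1% and a fold enrichment of 10, the regions fell from 988 to 608, 497 and 619, and at an FDR of 1% individual peaks fell to 1336 and the densest 1 Mb window to 44 regions. At these 3 limits and at a p-value of 1e-10 the median summit distance became 13647, 18660, 13467 and 9646 bp, the share in clusters 67.9%, 62.6%, 67.5% and 74.5%, the share with 2 or more individual peaks 74.5%, 78.1%, 72.7% and 68.5%, the median relative height of the second peak 16.5%, 16.5%, 15.7% and 20%, and the median height 200, 265, 193 and 132.5 tags. The share with 2 or more peaks at 50% of the highest was 20.3% at an FDR of 1%. Individual peaks of at least 100 bp gave 60.1% of regions with 2 or more. Those of at least 20 tags gave 30.7%, and a second peak at 48.0% of the highest. Distances between edges had a median of 6352 bp. Joining at 5 and 20 kb put 65.4% and 89.6% of regions in clusters. Limits of 25% and 75% of the highest gave 31.1% and 8.0% of regions with peaks of similar height. In each case the cause beyond the filter's own construction was not tested.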

Other observations

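The following X promoters were chosen after their values were seen. They are not the full list in their range of heights, which also held Sptr (385 tags), rdgB (226 tags) and rtv (174 tags), among others. The homeobox gene ct, which specifies sensory organs, had 502 tags 825 bp upstream of the start of the transcript held. The head gap gene btd had 212 tags 225 bp upstream, Lim1, a LIM homeobox gene, had 144 tags 274 bp upstream, and oc, the homeobox gene also called orthodenticle, had 112 tags 325 bp upstream. The potassium channel genes SK and eag had 221 and 161 tags, 95 and 23 bp upstream.

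In some genes GAF signal was found both near the start of the transcript held and inside it. NFAT had a peak of 383 tags with its summit 333 bp downstream of the start, in a region of raised control, in addition to the region of 789 tags 17.3 kb into the transcript. Pdcd4 had 173 tags 24 bp upstream and the region of 749 tags 8.05 kb into the transcript.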
